A study of Mus musculus with 135 samples.

Results

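The 39 protein-coding mouse genes of the 4 Hox clusters were taken by name (Hoxa, Hoxb, Hoxc or Hoxd followed by digits, GENCODE M21) from 21924 protein-coding genes. A peak of H3K4me3 within 1 kb of a transcription start site of such a gene was counted as a Hox promoter peak. Male germ cells had 39 Hox promoter peaks among 67114 peaks, embryonic stem cells 41 among 67192, hepatocytes 4 among 29138 and cardiomyocytes 24 among 23809.

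The study profiled the mark in 123 samples by sequencing immunoprecipitated, MNase-cut chromatin, and its 12 remaining samples were input DNA. The animals were (B6xD2)F1 hybrids, their parents C57BL/6J (B6) and DBA/2J (D2), and BXD lines, inbred strains whose genomes are mosaics of B6 and D2. Germ cells came from a crude isolation from males at 14 days post-partum and were represented by 4 F1, 3 B6 and 3 D2 libraries, all made with antibody lot 2557645. They were also represented by 69 libraries of 61 BXD strains, 33 of them made with lot 2557645 and 36 with lot 2746331. Hepatocytes and cardiomyocytes came from females at 8 weeks of age, with 3 libraries per strain from B6, D2, BXD75 and BXD87 mice, all with lot 2746331. Stem cell lines came from E3.5 embryos, with 5 libraries for each of these 4 strains. The 5 libraries came from 5 lines in BXD75 and in BXD87, but from 3 lines in B6 and in D2, because line 49 of B6 and line 203 of D2 had 3 libraries each, which were summed. Reads in peaks, given in M (1 M is 1000000 reads), numbered 1.87 to 31.4 M per germ cell library, 13.78 to 20.21 M per stem cell library, 8.95 to 25.23 M per hepatocyte library and 2.62 to 12.78 M per cardiomyocyte library. Nothing in the labels ties hepatocyte, cardiomyocyte or germ cell replicates to single animals, so p-values measure the spread between these samples.

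Hox genes encode homeodomain transcription factors that set position along the body axis of the embryo. Their order on the chromosome follows the order in which they are expressed along that axis, from the anterior genes of low number to the posterior genes of high number. H3K4me3 is the trimethylation of lysine 4 of histone H3, a mark of promoters, deposited by the Trithorax-related complexes. In stem cells and in male germ cells, silent Hox promoters are known for carrying it together with the Polycomb mark H3K27me3, a state called bivalent. H3K27me3 was not analysed here.

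Promoter sequences from RefSeq (build GRCm38.p6, 250 bases before to 50 bases after a start) were matched for 22 of the 39 genes, in 24 windows of 300 bases. The 4 below were chosen because of what the data showed at them. Hoxd9 lay under a peak in all 4 cell types (chr2:74697513-74697812, + strand). Hoxa13 (chr6:52260831-52261130, - strand) and Hoxa11 (chr6:52245761-52246060, - strand) differed in both cardiomyocyte comparisons, and Hoxb1 (chr11:96365508-96365807, + strand) had the lowest stem cell level per kb. Each is written 5′ to 3′ on the strand of the gene, and capitals mark each CG dinucleotide.
Hoxd9: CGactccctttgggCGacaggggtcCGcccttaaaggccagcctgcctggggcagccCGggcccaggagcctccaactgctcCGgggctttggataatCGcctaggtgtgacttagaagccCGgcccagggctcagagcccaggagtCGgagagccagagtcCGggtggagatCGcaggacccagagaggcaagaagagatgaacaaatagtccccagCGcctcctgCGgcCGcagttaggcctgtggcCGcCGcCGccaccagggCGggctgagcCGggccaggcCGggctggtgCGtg
Hoxa13: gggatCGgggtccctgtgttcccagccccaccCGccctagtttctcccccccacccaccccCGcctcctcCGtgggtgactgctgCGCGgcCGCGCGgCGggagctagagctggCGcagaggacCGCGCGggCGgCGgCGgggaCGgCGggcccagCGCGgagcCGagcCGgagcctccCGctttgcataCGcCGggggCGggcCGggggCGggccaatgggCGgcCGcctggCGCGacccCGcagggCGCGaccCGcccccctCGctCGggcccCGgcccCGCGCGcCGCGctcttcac
Hoxa11: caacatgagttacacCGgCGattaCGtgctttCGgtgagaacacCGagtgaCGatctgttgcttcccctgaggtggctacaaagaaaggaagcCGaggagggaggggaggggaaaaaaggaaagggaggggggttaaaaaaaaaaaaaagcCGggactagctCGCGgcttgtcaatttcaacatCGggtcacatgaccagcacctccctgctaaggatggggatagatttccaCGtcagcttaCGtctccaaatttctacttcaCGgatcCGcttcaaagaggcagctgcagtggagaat
Hoxb1: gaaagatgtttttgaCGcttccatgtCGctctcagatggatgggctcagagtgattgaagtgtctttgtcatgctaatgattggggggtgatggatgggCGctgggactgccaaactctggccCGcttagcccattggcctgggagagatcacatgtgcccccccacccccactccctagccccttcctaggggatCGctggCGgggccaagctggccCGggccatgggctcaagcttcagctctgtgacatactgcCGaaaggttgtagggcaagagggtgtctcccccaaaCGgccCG
The Hoxa13 window holds 45 CG dinucleotides, the Hoxd9 window 20, the Hoxa11 window 15 and the Hoxb1 window 10. The 24 Hox windows had a median of 14.5 (range 4 to 45), against 7 over 32851 RefSeq promoter windows of the same length. Their median GC content was 57.7%, against 52.7%. The letters TATAAA, searched on both strands, occurred in 4 of 24 Hox windows (16.7%) and in 13.6% of all windows. Of the 24 windows, 22 lay under a germ cell peak, 21 under a stem cell peak, 2 under a hepatocyte peak (Hoxd9 and Hoxa5) and 15 under a cardiomyocyte peak.

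Nearly every Hox gene carried a promoter peak in germ cells and in stem cells, and few did in hepatocytes. Germ cells had one at 38 of 39 Hox genes (97.4%) and so did stem cells (97.4%), whereas hepatocytes had 4 (10.3%) and cardiomyocytes 25 (64.1%). Counting only peaks that the deposited lists give as found on both the reference and a second genome, germ cells had a peak at 38 Hox genes, stem cells at 36, hepatocytes at 2 and cardiomyocytes at 9. In cardiomyocytes 16 of the 24 Hox peaks were found on the reference genome alone. The matching counts for other promoters are not given here, so this is not shown to be particular to Hox genes. Over all protein-coding genes, with every peak counted, the shares with a promoter peak were 68.7%, 66.6%, 55.9% and 58.6% in the same order of cell types. The gene without a peak in germ cells was Hoxc12, a posterior gene, whose nearest peak lay 1.93 kb away. In stem cells it was Hoxb3, an anterior gene expressed in the embryonic hindbrain, with the nearest peak 1.04 kb away, just outside the 1 kb limit. No gene lacked a peak in every cell type. Hoxa4 and Hoxd9 were among the 3 genes with one in all 4, while 22 genes had one in 3 cell types, 13 in 2 and Hoxc12 in stem cells alone.

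**Figure D1:**
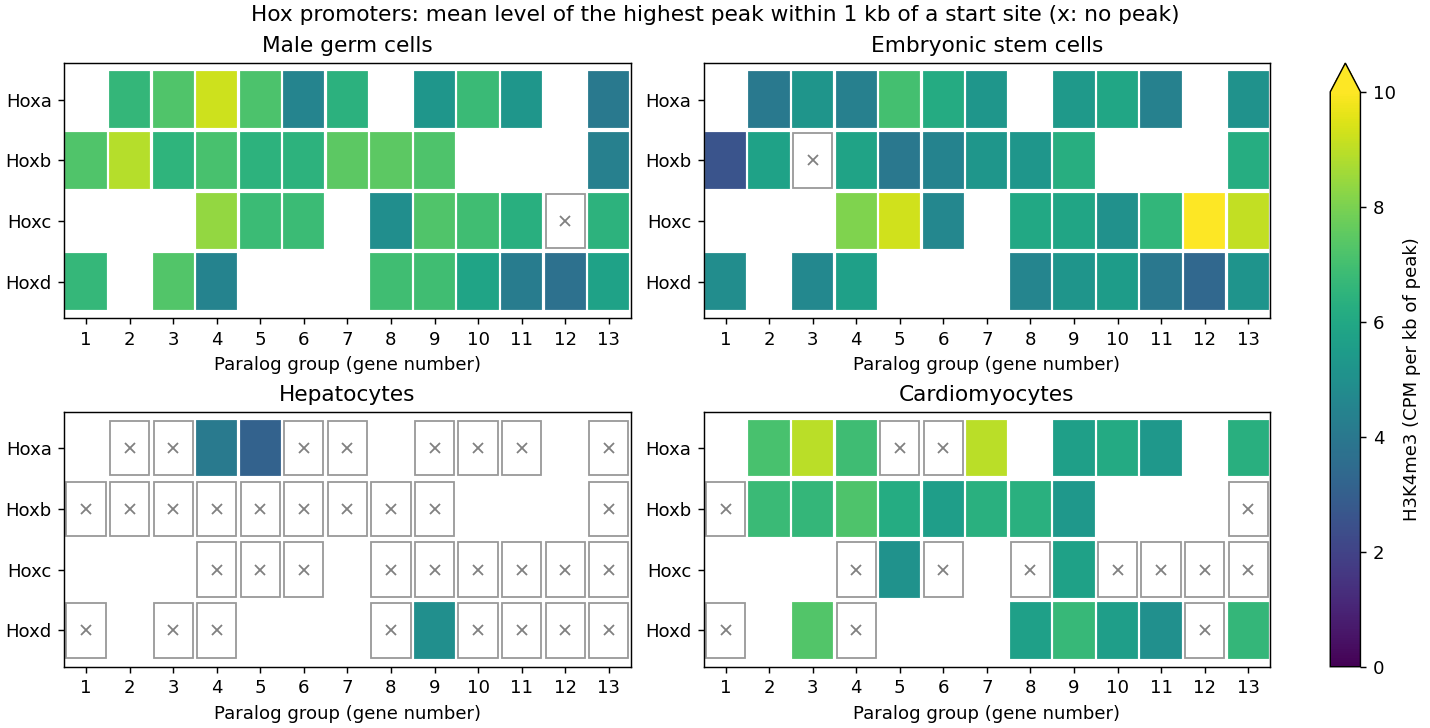
H3K4me3 level of each Hox gene's highest promoter peak in the 4 cell types, as mean CPM (counts per 1000000 counted reads) per kb of peak (colour), by cluster (rows) and paralog group (columns, gene number); a cross marks a gene with no peak, and an empty position is not plotted. The cardiomyocyte panel has 8 filled positions in Hoxb but 2 in Hoxc.

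In cardiomyocytes the clusters differed in how many of their genes had a peak. Cardiomyocyte peaks stood at 9 of 11 HoxA genes, 8 of 10 HoxB genes, 6 of 9 HoxD genes and 2 of 9 HoxC genes (Hoxc5 and Hoxc9). In germ cells the same counts were 11, 10, 9 and 8, and in stem cells 11, 9, 9 and 9. In hepatocytes HoxA had 3, HoxD 1 and the other clusters 0. By position in the cluster, cardiomyocyte peaks stood at 8 of 12 anterior genes (paralog groups 1 to 4), 7 of 11 central genes (5 to 8) and 10 of 16 posterior genes (9 to 13). Hoxb1 and Hoxb13, at the ends of HoxB, and Hoxd1 were among the genes without one. All H3K4me3 peaks together, promoter or not, covered 47.5% of the HoxA cluster in cardiomyocytes, 29.2% of HoxD, 18.4% of HoxB and 14.8% of HoxC (chr15:102921103-103036852). HoxB, with 8 of 10 genes marked, had a share almost as low as HoxC, but its span is longer, at 173.9 kb against 115.7 kb. In length, cardiomyocyte peaks covered 31.9 kb of HoxB and 17.1 kb of HoxC. In germ cells the shares were 64.6% of HoxA, 62.2% of HoxD, 44.7% of HoxC and 39.4% of HoxB. In stem cells they were 56.8% of HoxA, 47.6% of HoxC, 44.6% of HoxD and 31.5% of HoxB, and in hepatocytes 5.88% of HoxA, 2.23% of HoxC, 2.10% of HoxD and 0% of HoxB. Of the 14 Hox genes without a cardiomyocyte promoter peak, the median distance to the nearest peak was 7.42 kb, and of the 35 in hepatocytes 13.56 kb. Since peak lists were made separately for each cell type from libraries of different depth, a gene without a peak is one where none was detectable at that depth.

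Where Hox promoters had a peak, it was low for a promoter. In units of CPM per kb of peak, the median Hox level was 6.45 in germ cells against 11.7 over 14709 promoter peaks, and 5.21 in stem cells against 7.11 over 14210. It was 3.61 in hepatocytes against 9.41 over 11045, and 6.24 in cardiomyocytes against 11.2 over 11634. The median percentile of a Hox peak among the promoter peaks of its table was 18.5 in the germ cell table, 25.6 in that of stem cells, 3.0 in that of hepatocytes and 7.95 in that of cardiomyocytes. All 39 germ cell, 4 hepatocyte and 24 cardiomyocyte Hox peaks lay below the median promoter, as did 36 of 41 in stem cells. These are levels within a table; they were not tested across cell types, whose peak sets differ. In germ cells 29 of 39 Hox peaks exceeded the median promoter width, but 13 of 41 did in stem cells, 0 of 4 in hepatocytes and 8 of 24 in cardiomyocytes.

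Within germ cells the anterior peaks had the highest median per kb. The median was 7.07 CPM per kb over anterior, 6.43 over central and 5.76 over posterior peaks. The 3 highest were Hoxa4 at 9.23, Hoxb2 at 8.89 and Hoxc4 at 8.38 CPM per kb, all anterior genes, and the 3 lowest were the upstream peak of Hoxd4 at 3.03, Hoxd12 at 3.71 and Hoxa13 at 4.05. Hoxd4, with the lowest peak of all, is an anterior gene. So is Hoxd3, whose downstream and middle peaks were also low, at 4.19 and 4.45 CPM per kb. Hoxa13 and Hoxd12 are posterior genes, and Hoxa13 acts in the limb and in the urogenital tract. In cardiomyocytes the corresponding medians were 7.15, 5.66 and 5.74 CPM per kb, and in stem cells the order was the other way, at 4.87, 5.24 and 5.37. A peak shared by genes was placed by its gene of lowest number. The Hoxa3 and Hoxa7 peak of cardiomyocytes thus counted as anterior, and the Hoxd8 and Hoxd9 peak of germ cells as central.

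Hoxc12 in stem cells stood apart from the other Hox promoters. Its peak was 15354 bp wide (chr15:102925634-102940988 in the deposited list) and averaged 154.5 CPM, or 10.1 CPM per kb, at the 87.6th percentile of promoter peaks per kb and the 98.7th in CPM. The peak starts within the Hoxc13 gene, which ends at 102928814, and runs past the Hoxc12 start at 102936757. Its level is therefore not that of the Hoxc12 promoter alone. Hoxc5 at 9.27 and Hoxc13 at 9.10 CPM per kb followed, so the 3 highest stem cell Hox peaks all lay in the HoxC cluster. The lowest were Hoxb1 at 2.58, the downstream peak of Hoxd8 at 3.06 and Hoxd12 at 3.32 CPM per kb. Hoxb1 is an anterior gene of the hindbrain.

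In cardiomyocytes the highest level, 8.97 CPM per kb, was at a peak of 12231 bp that spans starts of Hoxa3 and Hoxa7, and Hoxd3, at 7.28 CPM per kb, was also among the 3 highest. The lowest were Hoxd11 at 4.98, Hoxc5 at 5.08 and Hoxb9 at 5.31 CPM per kb. Even the highest lay below the median promoter of 11.2 CPM per kb. All 4 hepatocyte peaks were low, among them Hoxd9 at 4.94, Hoxa4 at 4.09 and Hoxa5 at 3.13 CPM per kb. Several clusters share a peak between neighbouring genes, as Hoxd8 and Hoxd9 do in germ cells and Hoxb7 and Hoxb8 in 3 cell types, so their levels cannot be told apart. Many Hox peaks also lie at a start of another annotated gene, often an antisense or non-coding RNA such as Hottip beside Hoxa13. This held for at least 13 of 39 germ cell, 11 of 41 stem cell, 2 of 4 hepatocyte and 12 of 24 cardiomyocyte peaks. At these the signal of the antisense partner cannot be told apart from that of the Hox gene.

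The summed markers of cardiomyocytes, hepatocytes, stem cells and germ cells were highest in the cell type of their label. The summed level of the 3 cardiomyocyte markers with a peak was 374 CPM in cardiomyocytes, against 58.2 in germ cells, 42.3 in stem cells and 6.84 in hepatocytes, and Myh6, Tnnt2 and Actc1 had none. For 5 of 6 hepatocyte markers it was 1304 CPM in hepatocytes, against 20.01 in germ cells, 20.4 in stem cells and 11.9 in cardiomyocytes. In stem cells 4 of 6 markers had a peak, with 845 CPM, against at most 158 in the others, and Pou5f1 and Nanog had none. In germ cells all 7 germ cell markers had a peak, with 368 CPM, against at most 43.05 in the others. Lists for other cells of the testis and liver were not highest in those samples. Of the Sertoli cell markers 6 of 7 had a peak in germ cells, with 460 CPM, against 518 CPM in cardiomyocytes, where 4 had one, and all 7 had one in stem cells. The sums rest on different members: Amh, Cldn11 and Rhox5 had a peak in germ cells but none in cardiomyocytes. Sums across cell types also come from different peak sets, so they do not measure how many such cells a sample held. The peritubular and stromal markers had 184 CPM in germ cells with peaks at 5 of 6, against 260 CPM in cardiomyocytes with peaks at 6. Of the Leydig cell markers 1 of 5 had a peak in germ cells. Liver non-parenchymal markers had 78.4 CPM in hepatocytes, against 176 CPM in cardiomyocytes and 168 CPM in stem cells. Cardiac non-myocyte markers, by contrast, were highest in cardiomyocytes, with 406 CPM and peaks at 7 of 9. They had 186 CPM in germ cells, 181 CPM in stem cells and 31.6 CPM in hepatocytes.

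In cardiomyocytes 10 of 24 Hox promoter peaks were called lower in B6 than in D2 and 0 higher. Over all peaks 6.51% were called in either direction and 2.45% lower, and over promoter peaks 8.66% and 3.18%. At the Hoxa3 and Hoxa7 peak, B6 libraries had 85.9, 112 and 87.8 CPM, against 134.5, 151.5 and 144 CPM in D2 libraries. No B6 library reached the lowest D2 library, and the log2 difference was -0.59 ± 0.11 (SE; edgeR quasi-likelihood test, adjusted p = 0.00611). Hoxa13 had 28.3, 33.7 and 26.0 CPM in B6, against 46.5, 52.0 and 51.8 CPM in D2 (log2 -0.77 ± 0.14, edgeR adjusted p = 0.0056). Hoxa11, a posterior gene of limb and uterus, had 20.2, 27.0 and 20.2 CPM in B6, against 40.6, 45.8 and 37.0 CPM in D2 (log2 -0.88 ± 0.19, edgeR adjusted p = 0.0146). At both genes every B6 library lay below every D2 library. The largest difference was at Hoxd11, with 9.35, 16.5 and 7.62 CPM in B6, against 23.95, 31.0 and 24.2 CPM in D2 (log2 -1.26 ± 0.28, edgeR adjusted p = 0.0197).

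Among the other 6 called peaks were Hoxa9 (log2 -0.79), the downstream and upstream peaks of Hoxa10 (-1.08 and -0.82), Hoxc9 (-1.10) and Hoxd9 (-0.84), with edgeR adjusted p of 0.022 to 0.0444. Of the called peaks 7 belong to HoxA, 2 to HoxD and 1 to HoxC, and none to HoxB. The log2 difference was negative at 24 of 24 peaks, with a median of -0.76 and a range of -1.26 to -0.37, against a median of -0.05 over all promoter peaks. In 19 of 24 peaks every B6 library lay below every D2 library, as did 18.0% of all peaks. The call depends on single libraries: without B6 replicate 3 it was made at 0 peaks, without B6 replicate 2 at 21, and without B6 replicate 1 or D2 replicate 1, 2 or 3 at 2, 3, 2 and 5 peaks. With peaks found on both genomes 6 were called, and with DESeq2 17.

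Between the lines, 3 of 24 cardiomyocyte Hox peaks were called, all higher in BXD75. Over all peaks 0.529% were called in either direction and 0.319% higher, and over promoter peaks 0.37% and 0.249%. The Hoxa3 and Hoxa7 peak had 140, 117 and 121 CPM in BXD75, against 72.8, 77.7 and 72.0 CPM in BXD87 (log2 0.77 ± 0.11, edgeR adjusted p = 0.00381). Hoxa11 had 35.8, 23.7 and 30.4 CPM in BXD75, against 12.8, 16.3 and 15.4 CPM in BXD87 (log2 1.01 ± 0.19, edgeR adjusted p = 0.0253). Hoxa13 had 37.6, 31.1 and 37.4 CPM in BXD75, against 19.6, 23.8 and 21.8 CPM in BXD87 (log2 0.70 ± 0.14, edgeR adjusted p = 0.0413). At these 3 peaks the libraries of the lines did not overlap. All 24 log2 differences were positive, with a median of 0.76 and a range of 0.34 to 1.32, against a median of 0.08 over promoter peaks. Every BXD75 library lay above every BXD87 library at 20 of 24 Hox peaks, as at 7.93% of all peaks and 8.67% of promoter peaks. Without BXD75 replicate 2 there were 8 calls, without BXD75 replicate 3 or BXD87 replicate 1 or 2 there was 1, and without BXD87 replicate 3 there were 0. With replicate number as a block 1 was called, with peaks found on both genomes 1, and with DESeq2 12.

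**Figure D2:**
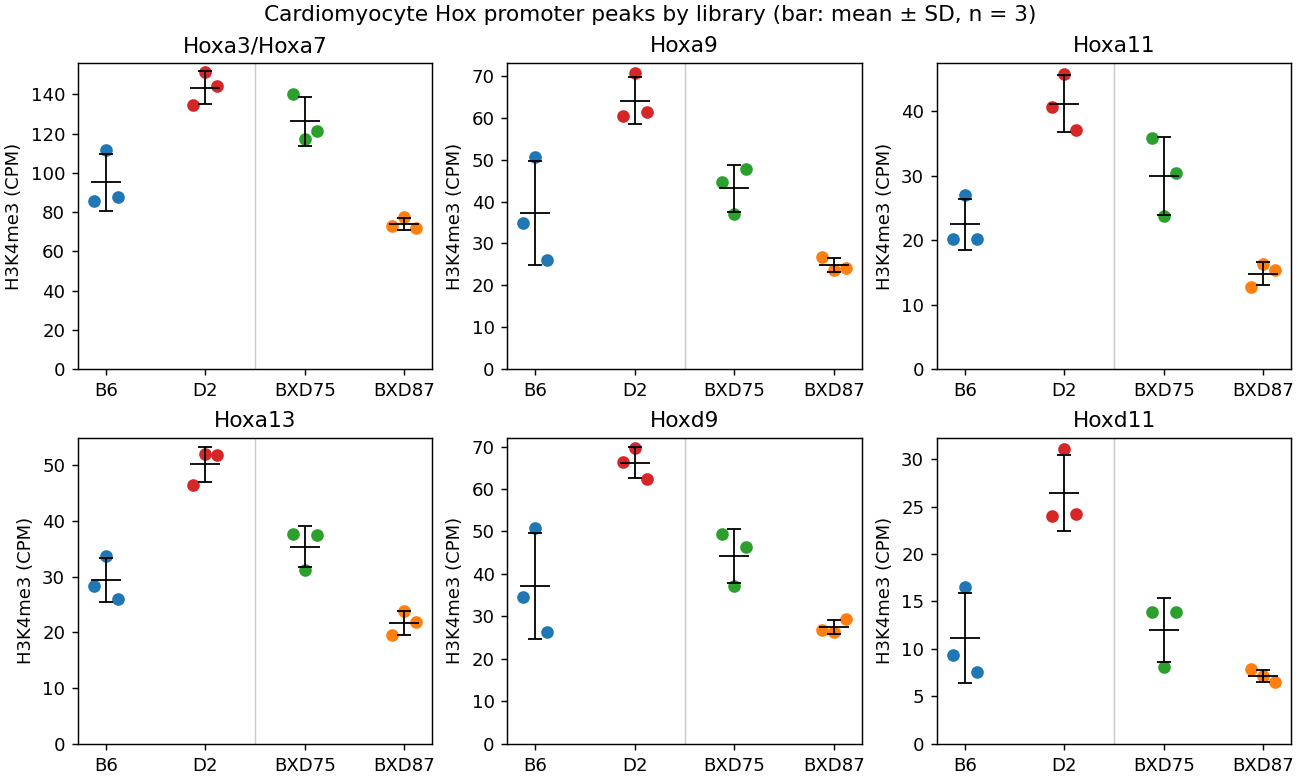
H3K4me3 at 6 Hox promoter peaks in single cardiomyocyte libraries, in CPM, for B6, D2, BXD75 and BXD87 (points: 3 libraries each; bars: mean ± SD). In all 6 panels every B6 library lies below every D2 library, and every BXD75 library above every BXD87 library.

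**Figure D3:**
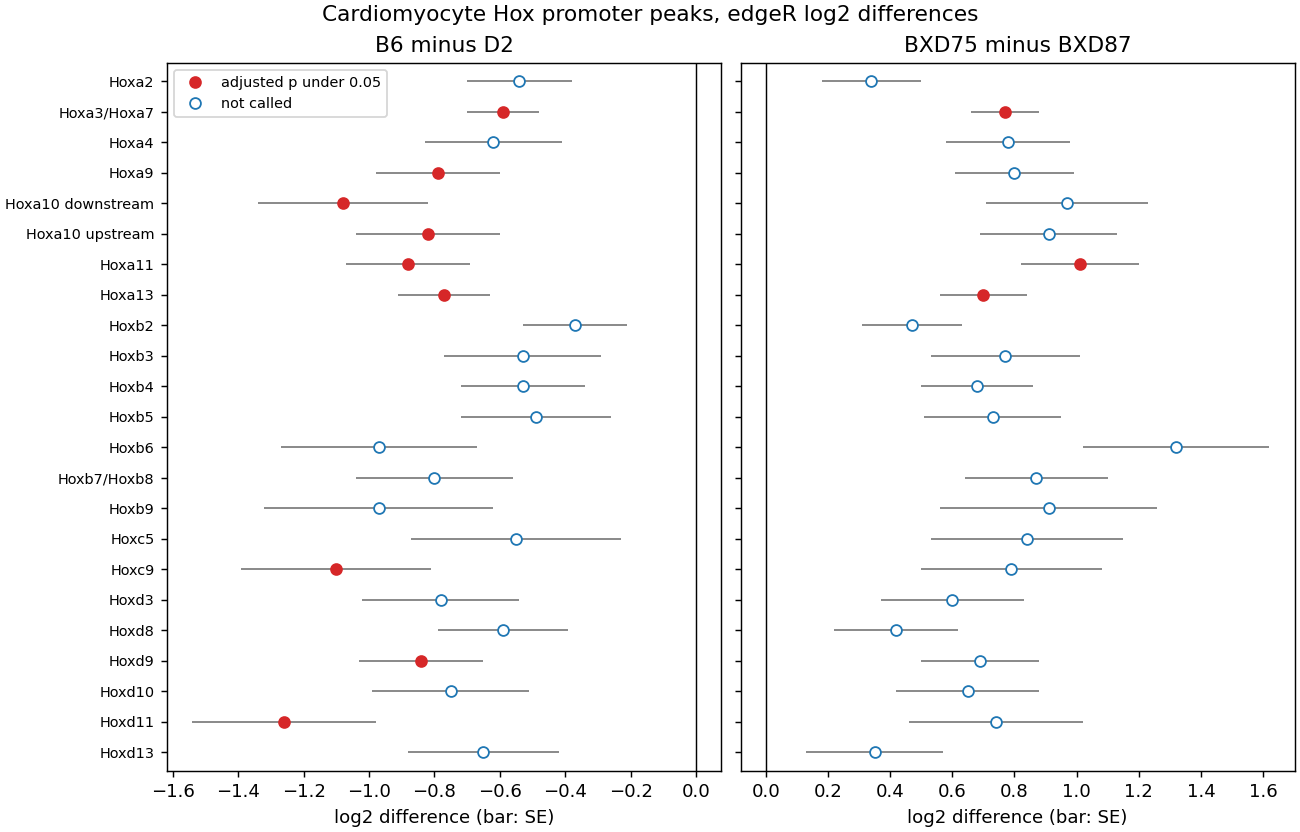
edgeR log2 differences of 23 of the 24 cardiomyocyte Hox promoter peaks, B6 minus D2 and BXD75 minus BXD87 (bars: SE; filled points: adjusted p under 0.05). All values shown are negative in the founders and positive in the lines.

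Summed over the 24 peaks, B6 libraries had 535.5, 758 and 489 CPM, against 897, 1065 and 985 CPM in D2. BXD75 libraries had 831, 592 and 698 CPM, against 415.5, 454 and 417 CPM in BXD87. The groups did not overlap in either comparison. The summed cardiomyocyte markers moved the other way. They had 352 to 445 CPM in B6, against 279 to 291 CPM in D2, and 340 to 389 CPM in BXD75, against 421 to 490 CPM in BXD87. Of these markers the ventricular light chain gene Myl2 (log2 0.78) and the troponin gene Tnni3 (0.61) were called higher in B6. Of the markers of cardiac non-myocytes 7 of 9 had a peak, with Pecam1 and Ptprc without one, and their sums were 386 to 458 CPM in B6, against 413 to 464 CPM in D2. They were 354 to 492 CPM in BXD75, against 339 to 366 CPM in BXD87. Fewer cells of a type and less H3K4me3 per cell cannot be told apart in these bulk samples, and the part of cell composition in the Hox difference was not tested.

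Depth moved with these groups too. B6 libraries had 6.84 to 8.34 M reads in peaks, against 2.62 to 4.10 M in D2, the lowest of the 4 strains. BXD75 libraries had 7.15 to 7.65 M, against 10.48 to 12.78 M in BXD87. When all libraries were thinned to the smallest total, 9 Hox peaks were called between B6 and D2 and 1 between BXD75 and BXD87. Promoters of low level differed in the same direction as Hox promoters but by less. In the lowest 20% of promoter peaks by CPM per kb, where 22 of the 24 Hox peaks lie, the median log2 difference was -0.44 between B6 and D2 over all promoters and -0.77 over Hox peaks. Between BXD75 and BXD87 it was 0.35 over all promoters and 0.76 over Hox peaks. Of these promoters 8.77% were called lower in B6, and 0.645% higher in BXD75. These medians are a description, with no test between Hox promoters and other promoters of that level.

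**Figure D4:**
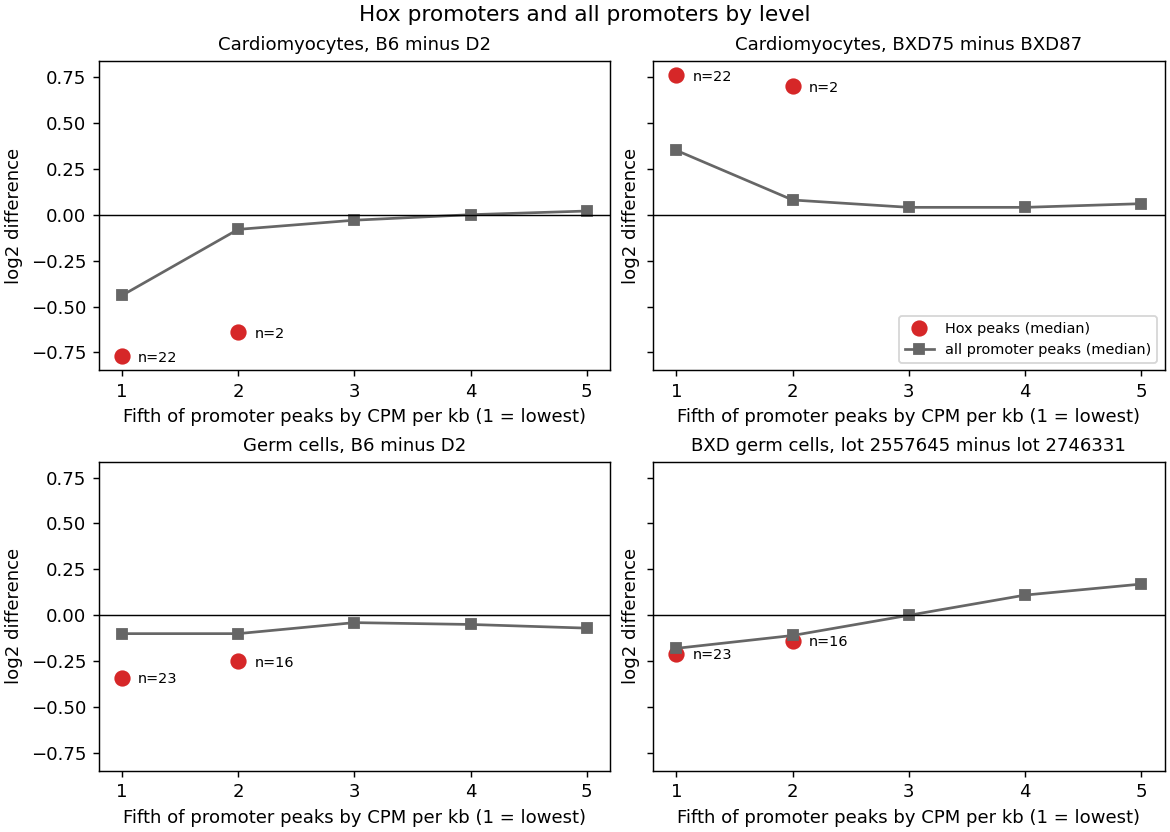
Median log2 difference of all promoter peaks (squares) and of the Hox peaks (circles) by promoter level, in groups of 20% from 1 (lowest CPM per kb) to 5 (highest). In cardiomyocytes group 1 has medians of -0.44 over all promoters and -0.77 over Hox peaks for B6 minus D2, and 0.35 and 0.76 for BXD75 minus BXD87; in germ cells they are -0.10 and -0.34 for B6 minus D2, and -0.18 and -0.21 for lot 2557645 minus lot 2746331.

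No Hox promoter was called in hepatocytes. All 4 peaks were tested, and 0 were called between B6 and D2, against 15.8% of all peaks and 7.37% of promoter peaks. Between BXD75 and BXD87 0 were called, against 4.89% and 1.77%. Hoxa5, a central gene needed for lung development, had the smallest p in both. It had 6.85, 7.02 and 5.84 CPM in B6, against 5.69, 5.56 and 3.04 CPM in D2, and the groups did not overlap (log2 0.46 ± 0.23, edgeR adjusted p = 0.231). In BXD75 it had 4.89, 4.69 and 7.07 CPM, against 5.23, 6.16 and 6.95 CPM in BXD87 (log2 -0.14, edgeR adjusted p = 0.939). In both comparisons 0 of the 4 had an unadjusted edgeR p under 0.05, and DESeq2 called 0. These peaks held 18 to 238 reads per library. Hoxd9 had 4.11, 5.92 and 10.3 CPM in BXD75, against 3.93, 8.09 and 8.62 CPM in BXD87, and the strains overlapped.

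In stem cells 3 of 41 Hox promoter peaks were called between B6 and D2, against 30.6% of all peaks and 12.5% of promoter peaks. At Hoxc12, the 3 B6 lines had 169, 164 and 174 CPM, against 142, 123 and 107 CPM in the 3 D2 lines (log2 0.45 ± 0.10, edgeR adjusted p = 0.00144). Every B6 line lay above every D2 line. The upstream peak of Hoxa10, a posterior gene, had 9.34, 10.1 and 11.3 CPM in B6, against 16.7, 15.8 and 14.0 CPM in D2 (log2 -0.59 ± 0.13, edgeR adjusted p = 0.0013), with no overlap. Hoxb2, a hindbrain gene, had 18.01, 22.4 and 19.0 CPM in B6, against 26.9, 24.6 and 21.7 CPM in D2 (log2 -0.31 ± 0.11, edgeR adjusted p = 0.0439). Its B6 line 146 lay above D2 line 216. Without D2 line 216, 7 Hox peaks were called.

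Between BXD75 and BXD87 stem cells 2 of 41 were called, against 21.8% of all peaks and 11.7% of promoter peaks. Both were higher in BXD75, as were 9.94% of all peaks and 7.8% of promoter peaks. Hoxc12 had 173, 188, 171, 178 and 175 CPM in BXD75, against 138, 149, 161, 137 and 146 CPM in BXD87, with no overlap (log2 0.27 ± 0.08, edgeR adjusted p = 0.0122). Hoxb2 had 25.8, 25.1, 24.2, 22.4 and 25.3 CPM in BXD75, against 19.4, 19.8, 23.7, 19.8 and 19.7 CPM in BXD87, where line K reached into the BXD75 range (log2 0.26 ± 0.09, edgeR adjusted p = 0.0392). Without BXD75 line F, N or Y or BXD87 line C, M or X, 1 was called. Hoxc12, with 154.5 CPM on average, was called in both stem cell comparisons with the sign that made B6 and BXD75 the higher, and its adjusted p stayed under 0.05 in every alternative tried.

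In germ cells the summed Hox level of F1 hybrids lay within the range of B6 libraries and below all D2 libraries. Summed over 39 peaks the F1 libraries had a median of 945 CPM (range 847 to 965), B6 libraries had 783, 1053 and 792 CPM, and D2 libraries had 980, 1110 and 991 CPM. Against the mean of both parents 0 of 39 Hox peaks were called in F1, against 1.59% of all peaks and 0.381% of promoter peaks, and 0 had an unadjusted edgeR p under 0.05 or a DESeq2 call. The smallest p was at Hoxc13, a hair and skin gene (log2 0.32 ± 0.16, edgeR adjusted p = 0.826). Between B6 and D2, 1 of 39 was called, against 17.3% of all peaks and 4.4% of promoter peaks. It was the peak of Hoxb7 and Hoxb8, with 43.9, 55.2 and 35.9 CPM in B6, against 57.0, 61.2 and 58.7 CPM in D2 (log2 -0.45 ± 0.15, edgeR adjusted p = 0.0478). The B6 library with the highest value, in the column named B63, came close to the D2 libraries. Without it 17 Hox peaks were called; without any other B6 or D2 library, with a stricter filter, or with peaks found on both genomes, 0 were. The log2 difference was negative at 38 of 39 peaks (median -0.29, against -0.07 over promoter peaks), and 12 had an unadjusted edgeR p under 0.05. In the lowest 20% of promoters by level the median was -0.10 over all promoters and -0.34 over 23 Hox peaks. Summed Sertoli cell markers were 385 to 444 CPM in F1, 378 to 542 CPM in B6 and 341 to 425 CPM in D2, and germ cell markers 424 to 505 CPM in F1, 380 to 437 CPM in B6 and 453 to 460 CPM in D2. Of single markers of somatic cells, the Sertoli cell genes Cldn11 (log2 0.63) and Rhox5 (1.06) and the stromal gene Dcn (0.71) were called higher in B6 than in D2, and the Leydig cell gene Hsd3b1 (-1.86) lower. Their part in the Hox values was not tested.

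**Figure D5:**
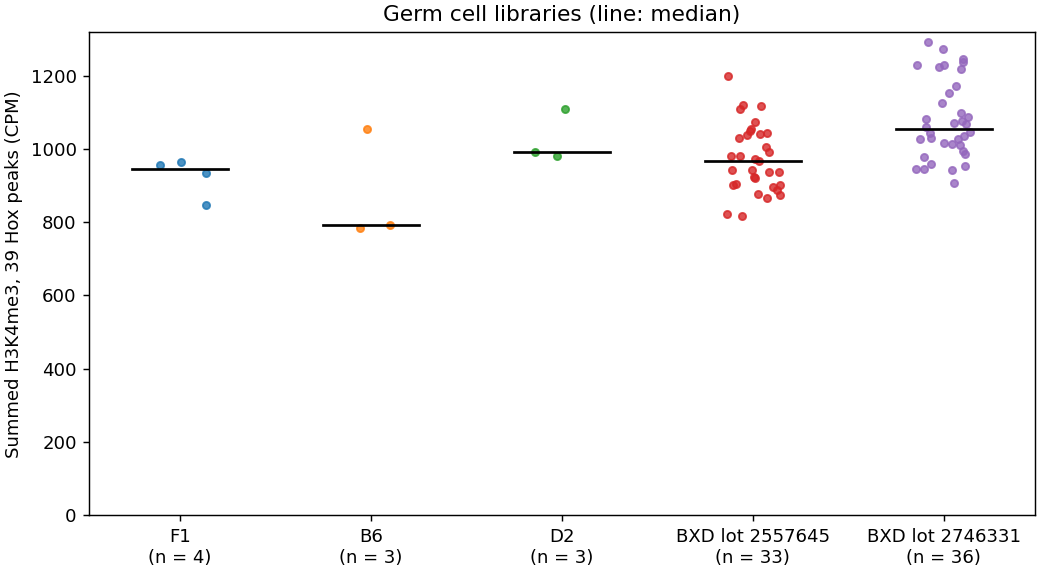
Summed CPM of the 39 Hox promoter peaks in each germ cell library, for F1, B6, D2 and the BXD libraries of each antibody lot (line: median). B6 has 2 libraries near 783 to 792 CPM and 1 at 1053 CPM.

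In the BXD panel Hox promoters differed between libraries of the antibody lots. Lot 2557645 libraries had a summed median of 966 CPM (818 to 1200, n = 33), against 1054 CPM (906 to 1293, n = 36) in lot 2746331. Of 39 Hox peaks, 29 were called between 28 strains of lot 2557645 and 32 of lot 2746331, of which 28 were lower in lot 2557645 and 1 was higher (the upstream peak of Hoxa10, log2 0.10). Over all peaks 56.4% were called and 26.7% were lower, and over promoter peaks 63.3% and 26.5%. In the lowest 20% of promoters by level the median log2 difference was -0.18 over all promoters and -0.21 over Hox peaks, against 0.17 over all promoters of the highest 20%. Hoxc9 had a median of 19.0 CPM (16.0 to 31.2) in lot 2557645, against 24.2 CPM (18.2 to 31.0) in lot 2746331 (log2 -0.32, edgeR adjusted p = 5.48e-07). Hoxc8 had 10.9 CPM (7.13 to 20.04) in lot 2557645, against 14.2 CPM (8.78 to 20.7) in lot 2746331. Hoxb9 had 30.4 CPM (23.3 to 44.8) in lot 2557645, against 36.8 CPM (27.5 to 57.4) in lot 2746331. The lots overlap at all 3. Sertoli cell markers were lower in lot 2557645 too, with 6 of 6 called and a median log2 difference of -0.33, while 5 of 7 germ cell markers were called higher, with a median of 0.22. The part of these cells in the Hox difference was not tested. BXD99, left out of this fit, was the strain with libraries of both lots, and its summed Hox level was 876 CPM in lot 2557645, against 1088 and 995 CPM in lot 2746331. All other strains had libraries of 1 lot, so lot and strain set cannot be told apart in the fit.

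Between strains, lot was centred out before the spread was compared with that of promoters in general. The SD over 61 strains of log2(CPM + 0.5) had a median of 0.19 over the 39 Hox peaks, against 0.16 over all promoter peaks and 0.26 over the lowest 20% by level. The variance over the 61 strains was divided by the variance within strains, which came from the 7 strains with more than 1 library. The variance over strains includes that between libraries, so a ratio near 1 does not show a strain difference. The ratio had a median of 1.23 over Hox peaks, against 0.79 over all promoter peaks and 1.19 over the lowest 20%. It exceeded 1 at 24 of 39 Hox peaks and at 5454 of 14709 promoter peaks. The SD was largest at Hoxc8 (0.28), Hoxd13 (0.27) and Hoxd11 (0.25), and smallest at Hoxc4 (0.13). Hox peaks tended to vary together across strains. Pearson's r between 2 Hox peaks over the strains had a median of 0.59 for pairs of the same cluster, of which 182 of 182 were positive, and 0.58 for pairs of different clusters, of which 550 of 559 were. These correlations are over shared libraries and are a description. No r between pairs of other promoters is given here, so this is not shown to be particular to Hox peaks. The summed Hox level, as a deviation from the lot mean, ran from -0.25 in BXD2 to 0.27 in BXD67 (log2, SD 0.14), and its r with reads in peaks over the strains was -0.018.

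In the 7 strains with more than 1 library of a lot, strain within lot was called at 5 of 39 Hox peaks, against 16.8% of all peaks and 5.79% of promoter peaks. They were Hoxa3, Hoxc9, Hoxc10, Hoxc11 and the middle peak of Hoxd3, and BXD84 was the highest strain at all 5. Hoxc11 had 25.7 and 30.7 CPM in BXD84, against 14.6 to 24.0 CPM in the other 6 strains. With DESeq2 or its size factors 0 were called. Without 1 library of BXD84 or the second of BXD99 there were 3 calls, without the second of BXD56 2, without the first of BXD39 or BXD56 1, and without the second of BXD39 or either library of BXD48, BXD68 or BXD71 0.

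Some other promoters followed the Hox sum over strains. Over all promoter peaks the r with the Hox sum had a median of 0.21 and ran from -0.73 to 0.91. Outside the clusters the 5 promoter peaks most like it over 61 strains were Gbx2 (r = 0.91), Insm1 (0.91), Hmga2 (0.90), Sox21 (0.90) and Elfn1 (0.89). Within lot 2557645 their r was 0.85 to 0.90 and within lot 2746331 0.90 to 0.93, which is no independent support, since these genes were chosen over the same strains.

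Genes that act on or with Hox genes were counted from lists chosen with earlier results of these data known. Of the 28 Polycomb genes, which hold Hox genes silent, 27 had a peak in germ cells, stem cells and hepatocytes and 28 in cardiomyocytes. In the hepatocyte, cardiomyocyte, B6 and D2 stem cell, and F1, B6 and D2 germ cell comparisons 0 were called. Between BXD75 and BXD87 stem cells 2 were called (Ezh1, log2 0.40, and Phc2, 0.56). In hepatocytes 7.37% of promoter peaks were called between B6 and D2 and 1.77% between BXD75 and BXD87. In cardiomyocytes these shares were 8.66% and 0.37%. In germ cells 4.4% were called between B6 and D2, and 0.381% between F1 and the mean of both parents. Of 11 Trithorax genes, 1 was called in each stem cell comparison, Dpy30 between B6 and D2 (-0.22) and Rbbp5 between BXD75 and BXD87 (-0.32). Of all promoter peaks 12.5% were called between B6 and D2 stem cells and 11.7% between BXD75 and BXD87 stem cells. Of the Hox cofactor genes, which encode homeodomain partners of Hox proteins, Meis2 was called between B6 and D2 in cardiomyocytes, with 313 ± 33.2 CPM in B6, against 242 ± 7.76 CPM in D2 (SD, n = 3 each; log2 0.37 ± 0.10, edgeR adjusted p = 0.037). In hepatocytes its sign was the other way, with 88.0 ± 5.82 CPM in B6, against 124 ± 18.5 CPM in D2 (SD, n = 3 each; log2 -0.49, edgeR adjusted p = 0.00559). Pbx4 was called higher in B6 in hepatocytes (log2 1.62) and in stem cells (0.46), and Pknox2 higher in B6 in stem cells (0.43). Of cofactor genes with a peak, 3 of 7 were called between B6 and D2 hepatocytes, 2 of 8 in cardiomyocytes and 3 of 9 in stem cells. Between BXD75 and BXD87 stem cells 2 of 9 were called, among them Meis2, higher in BXD75 (log2 0.32, edgeR adjusted p = 0.036). Between B6 and D2 germ cells 0 of 8 cofactor genes with a peak were called. Between the antibody lots 17 of 27 Polycomb, 8 of 11 Trithorax and 6 of 8 cofactor genes with a peak were called, against 56.4% of all peaks and 63.3% of promoter peaks, with median log2 differences of 0.08, 0.09 and -0.10.

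The homeobox genes linked to or related to the Hox clusters had medians of the same sign as the Hox promoters in cardiomyocytes. Their median log2 difference was -0.72 between B6 and D2, with 0 of 8 peaks called, and 0.54 between BXD75 and BXD87, with 1 called (Meox1, 78.7 ± 3.58 CPM in BXD75, against 56.9 ± 6.30 CPM in BXD87, SD, n = 3 each). Called were 8.66% of promoter peaks between B6 and D2 and 0.37% between BXD75 and BXD87, and the medians over the lowest 20% of promoters by level were -0.44 and 0.35. Evx2, which lies beside HoxD, was the 1 of 8 called between B6 and D2 germ cells, where 4.4% of promoter peaks were. It had 35.4 ± 8.77 CPM in B6, against 50.3 ± 3.81 CPM in D2 (SD, n = 3 each; log2 -0.57, edgeR adjusted p = 0.0256). Upstream regulators set where Hox genes are expressed. Between B6 and D2 hepatocytes 1 of 8 with a peak was called, Cdx4, lower in B6 (log2 -0.71), against 7.37% of promoter peaks. Between B6 and D2 stem cells 1 of 13 was called, Cyp26c1, lower in B6 (-0.84), against 12.5% of promoter peaks.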

How the data were processed

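H3K4me3 was profiled in germ cells, stem cells, hepatocytes and cardiomyocytes. The deposited tables hold whole-number read counts per peak, not normalised, with 1 column for each H3K4me3 sample; inputs have no column. Peak coordinates (unit: other) come from the deposited association lists as the authors wrote them, and those lists name each peak by whether it was found on 1 or on both of the reference and a second genome. The tools named in the submitters' processing notes are BWA 0.5.10, MACS 1.4.2 and CASAVA 1.8, with build mm10, without their roles; which reads were counted, and the build of the second genome, are not given in the sources used here. Germ cell libraries were made with a NEXTflex kit and the others with a KAPA kit, per the labels' protocols.

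Peaks were placed within 1 kb of starts of GENCODE M21 basic transcripts. Counts were tested with edgeR 4.0.16 (R 4.3.3; filterByExpr by group, TMM, robust quasi-likelihood fit) on all peaks of a table, with the strains of each cell type fitted together, and adjusted by Benjamini-Hochberg over all tested peaks; a peak with adjusted p under 0.05 was called. Antibody lots were compared on strain sums, leaving out BXD99 because both lots were used on it, and stem cell libraries were summed by line. CPM used TMM library sizes, and the log2 pseudocount over strains was 0.5. The scripts were tested on simulated data. DESeq2 1.42.0, other size factors, filters, peak sets and left-out libraries were alternatives. Named were every called Hox promoter, the 3 highest and 3 lowest per cell type, the smallest p where none was called, and the most and least variable over strains. The values of 1 Hox promoter and of 1 cofactor gene are not reported here, though counts and sums include them. The members and gene lists were chosen with earlier results of these data known. Read totals per library set the precision.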

Additional observations from a re-analysis of the deposited data

Results flagged for a closer look

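In 121 groups of 4 to 10 libraries or lines, 7 Hox values stood apart from the rest of their group by the gap to the nearest value, and about 5% of such groups do so by chance. In F1 germ cells, Hoxc4 was 17.9 CPM in replicate 2 (22.8 to 23.4 in the others) and the peak of Hoxc5 and Hoxc6 was 42.8 CPM in replicate 4 (45.5 to 45.9). In BXD75 stem cells, line Q had 7.86 CPM at Hoxa11 (11.5 to 12.2 in the others) and 4.15 CPM at the downstream peak of Hoxd3 (5.53 to 5.74). In BXD87 stem cells, line K had 23.7 CPM at Hoxb2 (19.4 to 19.8) and 13.1 CPM at Hoxc10 (11.8 to 12.2), and line M had 2.87 CPM at the downstream peak of Hoxd8 (3.53 to 3.72). The Hoxb2 value bears on the difference between BXD75 and BXD87 described above; the cause of none of these values was tested.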

How the results depend on the processing

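Over all Hox results, 99 of the alternative counts kept within 1.5 times the count given in the report and 55 moved; no direction was reversed. At single named peaks 400 of 482 alternatives kept the call and 82 kept the direction but lost it; their cause was not tested. Between B6 and D2 cardiomyocytes the 10 calls became 17 with DESeq2, 6 with peaks found on both genomes, and 0 to 21 when single libraries were left out. Between BXD75 and BXD87 cardiomyocytes the 3 calls became 12 with DESeq2, 1 with peaks found on both genomes, 1 with libraries thinned to the smallest total (an alternative chosen after seeing the data) and 0 to 8 when single libraries were left out. Leaving out lines gave 2 to 7 calls between B6 and D2 stem cells and 1 to 3 between BXD75 and BXD87. In germ cells the 1 call between B6 and D2 became 4 with DESeq2, 0 with a filter of 50 reads, 0 with peaks on both genomes, and 0 to 17 when libraries were left out. Strain within lot gave 0 calls with DESeq2 size factors, 3 with the filter of 50 reads, 0 with DESeq2, 2 with peaks on both genomes, and 0 to 6 when libraries were left out. Hox genes with a peak fell to 2 in hepatocytes with a window of 0 kb, to 2 with peaks on both genomes, and to 9 in cardiomyocytes with peaks on both genomes. Ranked in CPM per peak rather than per kb, the median percentile was 27.0 in germ cells and 17.2 in cardiomyocytes. Whether replicate numbers pair samples could not be settled, since only samples of the same number were compared. Of these pairs 8 of 18 in cardiomyocytes (r -0.734 to 0.65) and 5 of 18 in hepatocytes (-0.265 to 0.605) correlated over 0.1. With replicate number as a block 7 Hox peaks were called between B6 and D2 cardiomyocytes, 1 between BXD75 and BXD87 cardiomyocytes, and 0 in both hepatocyte comparisons. Counting error is widest at peaks with few reads per library, down to 5 in germ cells (upstream peak of Hoxd4), 18 in hepatocytes (Hoxd9), 31 in stem cells (downstream peak of Hoxd8) and 37 in cardiomyocytes (Hoxb5).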
